A study of Homo sapiens with 9 samples.

Results

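IGF2BP2, an RNA-binding protein (RBP) of the insulin-like growth factor 2 mRNA-binding family, was 1 of 10 RBPs profiled together by antibody-barcode eCLIP (ABC) in K562 cells, a human chronic myelogenous leukemia line. In ABC each antibody carries its own DNA barcode, which joins the bound RNA by ligation, so that every read can be assigned to its antibody. The members are the 3 libraries whose deposited files carry both K562 and IGF2BP2 in their names, of 54 ABC libraries in the series, and they were compared with the 27 libraries of the other 9 RBPs from the same 3 pools (DDX3, EIF3G, FAM120A, LIN28B, PRPF8, PUM2, RBFOX2, SF3B4 and ZC3H11A). All 30 libraries came from K562 cells crosslinked with ultraviolet light, with no further treatment and no altered gene. Each replicate is 1 lysate mixed with all 10 antibodies, so the 10 libraries of a replicate share their cells. The labels number the replicates 1 to 3 without saying whether they came from separate cultures, so p-values for single genes measure the spread between these pools. Those from permutation of RBP labels measure the spread between RBPs within the pools. For replicate 3 the title gives K562 while the cell line field reads K563. The 12 K562 markers, among them the fetal globins HBG1 and HBG2 and the erythroid factor GATA1, held IGF2BP2 peaks in each replicate, whereas 0 of 6 liver and kidney markers had a peak in any of the 10 libraries.

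Proteins of the IGF2BP family bind mRNAs in the cytoplasm through RRM and KH domains and are known for affecting the stability, localization and translation of their targets. CA-rich elements, among them CAT followed by A, C or T in DNA letters, are the motifs described for the family, and N6-methyladenosine within GGAC has been described as a further feature of its sites. IGF2BP2 binds in 3′ untranslated regions (3′UTRs) and in coding sequence (CDS), and the family is abundant in fetal tissue and in many tumors.

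The sites that carry the results are shown first. The following 30 nt windows lie at the center of the stretch that the peaks of all 3 IGF2BP2 replicates had in common, read 5′ to 3′ on the strand of the mRNA in GRCh38. Each is the strongest shared site of its gene. The 8 genes had the highest ratio over the pool among those with a shared site and at least 30 IGF2BP2 reads in every replicate. Capitals mark each CATA, CATC or CATT and each CACA. HMGA1 (chr6:34245872-34245901, plus strand), S100A11 (chr1:152032562-152032591, minus strand), SLC25A23 (chr19:6441115-6441144, minus strand), FGFRL1 (chr4:1026025-1026054, plus strand), CREB3L1 (chr11:46321045-46321074, plus strand) and MLF2 (chr12:6748088-6748117, minus strand) were bound in the 3′UTR. NFATC3 (chr16:68122515-68122544, plus strand) and POLR2A (chr17:7513547-7513576, plus strand) were bound in the CDS.
HMGA1: gttcaatgttcCATTcttcgaCATCcgtca
S100A11: caccCATCccctgagCACActaaccacctc
SLC25A23: cactacgccttccacccccaggcactggat
FGFRL1: atgctgtccggaCACACACAcgcatgCACA
CREB3L1: cctgcacccaaacagaCACATCaacgcacc
MLF2: ctctccctcctcctgccCACACACATCaaa
NFATC3: ctcctggtggctctccagggggctgccctg
POLR2A: ctacagcccgaCATCacccagctattcacc
Of these 8 windows, 5 held CATA, CATC or CATT and 4 held CACA. Of all 170518 places with a 3′UTR peak of any of the 10 RBPs, enriched or not, the central window of the same length held the first in 27.5% and the second in 15.4%. The matches were searched on the mRNA strand alone and are descriptions, not mapped contacts. CACA and CATC overlap where they adjoin, as in CREB3L1.

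The authors called 19528, 31779 and 44998 IGF2BP2 peaks in replicates 1, 2 and 3, which merging left at 17823, 29291 and 41591. Reads in the merged peaks summed to 188909, 295490 and 494099, and over all 30 libraries these sums ran from 13661 for PUM2 to 2188994 for FAM120A. The reference for IGF2BP2 was the complement control (CC), the reads of the other 9 barcodes of the same pool at the same place. Peaks over 8-fold above the CC at P below 0.001 were called enriched, outside sites that resemble the barcode adapter.

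IGF2BP2 had 2900, 4588 and 2464 enriched peaks in the 3 replicates, which is 19.02%, 17.6% and 5.99% of the peaks with a CC value (3317 ± 1122, SD, n = 3) and 12.1% over the 3 together. They fell in 1927, 2680 and 1517 genes. Replicate 3 had the most peaks and the smallest share enriched. IGF2BP2 made up 8.53%, 7.97% and 17.0% of the reads of its pool in replicates 1, 2 and 3. The larger that share, the larger the part of the reads at a site that an 8-fold excess needs. Its part in these counts was not tested. The P of replicates 1 and 2 came from a chi-squared test at low reads too, whereas that of replicate 3 came from Fisher's exact test there, and the median enriched peak held 4, 5 and 10 reads. With 1 exact binomial test for all replicates, an alternative chosen after seeing the data, the counts were 1436, 2613 and 2464.

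At 297 sites an enriched peak was found in all 3 replicates. These sites took up 11.1%, 7.17% and 13.8% of the enriched peaks of replicates 1, 2 and 3. Peaks at shared sites were deeper, with a median of 9, 18 and 26 reads against 4, 4 and 10 elsewhere. By region, 175 of the 297 sites (58.9%) lay in 3′UTRs and 109 (36.7%) in CDS. Of the rest, 1 lay in a 5′UTR, 6 in noncoding exons and 6 in introns. The sites were spread over 231 genes, of which 197 held 1 site, 21 held 2 and 13 held 3 or more. PABPC1 with 10 sites and HMGA1 with 9 held the most.

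At the level of genes, 594 had an enriched peak in all 3 replicates, which is 14.7% of the 4048 genes with a peak that had a CC value in each and 30.8%, 22.2% and 39.2% of the gene lists of replicates 1, 2 and 3. Of these, 584 were protein coding, 9 were long noncoding RNAs and 1 was of another type. By the same count the other 9 RBPs had from 21 genes (PUM2) to 2997 genes (PRPF8), with 1452 for LIN28B and 1561 for FAM120A. Near-identical copies cannot be separated with certainty, which touches PABPC1 and its pseudogene PABPC1P4, HSPA1A and HSPA1B, and IFITM1 and IFITM2, all among the 231 genes.

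Enriched IGF2BP2 peaks lay mostly on the mature mRNA, in 3′UTRs and CDS. The 3′UTR share was 46.8%, 44.3% and 64.0% in replicates 1, 2 and 3 (51.7% ± 10.7, SD, n = 3), against a mean of 22.3% over the other 9 RBPs. FAM120A was higher in every replicate, and PUM2 was higher in replicate 2. The difference of 29.4 percentage points did not pass the exact permutation of RBP labels within replicates (two-sided p = 0.073, adjusted p = 0.41 over 7 regions, smallest possible p 0.001). The CDS share was 42.9%, 47.7% and 27.6%, against 36.9% over the other 9 (adjusted p = 0.867 by the same exact test). Replicate 3 thus had more 3′UTR and less CDS than replicates 1 and 2. A peak that touched CDS was counted as CDS. By the region at the peak center, the CDS difference was 13.1 percentage points and did not pass (adjusted p = 0.34, exact permutation). The depth of the peaks moved with the region: among enriched peaks with at least 10 reads the 3′UTR share was 61.8%, 55.2% and 66.1%, and among those with fewer it was 44.5%, 41.8% and 61.5%. Its part in the difference between replicates was not tested.

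Few IGF2BP2 peaks lay in 5′UTRs, introns or at splice sites. The 5′UTR share was 1.21%, 1.57% and 0.446% (1.07% ± 0.573, SD, n = 3), against 11.8% over the other 9. Splice sites took up 0.690%, 0.240% and 0.244%, against 9.24%. Other introns took up 6.07%, 4.23% and 3.45%, against 17.3%. Few RBPs drew up these means: EIF3G (49.1%) and DDX3 (41.9%) for 5′UTRs, SF3B4 (53.1%) for splice sites and RBFOX2 (74.6%) for introns. All other RBPs of the pool had 5′UTR means of 3.20% or less. IGF2BP2 ranked 9th of 10 for 5′UTRs and splice sites and 8th for introns. None of these 3 differences passed the exact permutation test (adjusted p = 0.41, 0.41 and 0.435).

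**Figure D1:**
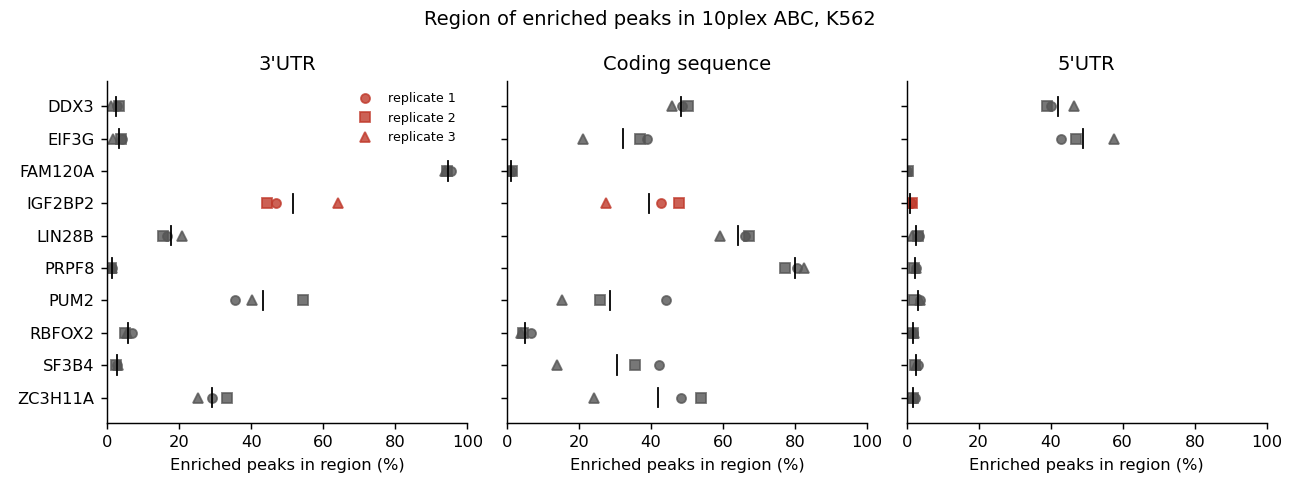
Share of enriched peaks by region (percent) in 3′UTRs, coding sequence and 5′UTRs for the 10 RBPs of the K562 pools, with a symbol for each of the 3 replicates and a black line at their mean. IGF2BP2 had 46.8%, 44.3% and 64.0% of its enriched peaks in 3′UTRs, second by mean to FAM120A, and 1.57% or less in 5′UTRs.

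Along the 3′UTR, IGF2BP2 peaks were spread over the whole length with more near the stop codon. Their median relative position, from 0 at the stop codon to 1 at the transcript end, was 0.405, 0.398 and 0.396, against a mean of 0.396 over the other 9 (adjusted p = 0.95, exact permutation within replicates over 4 measures). In nucleotides the medians were 524, 552 and 565 after the stop codon. Of 5 equal parts of the 3′UTR, the one next to the stop codon held 30.6%, 29.5% and 30.1% of these peaks and the one at the transcript end 14.5%, 14.8% and 15.8%. Peaks within 100 nt of the stop codon made up 10.7%, 8.59% and 6.67% of those on mRNAs, against 5.67% for the other 9. The last exon held 59.99%, 56.7% and 76.2% (64.3% ± 10.5, SD, n = 3), against 39.7%. By mean, ZC3H11A (12.6%) and PUM2 (12.2%) had more than IGF2BP2 (8.64%) near the stop codon. FAM120A (99.4%) and PUM2 (67.0%) had more in the last exon. Neither the stop codon share nor the last exon share passed the test (both adjusted p = 0.409, exact permutation).

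**Figure D2:**
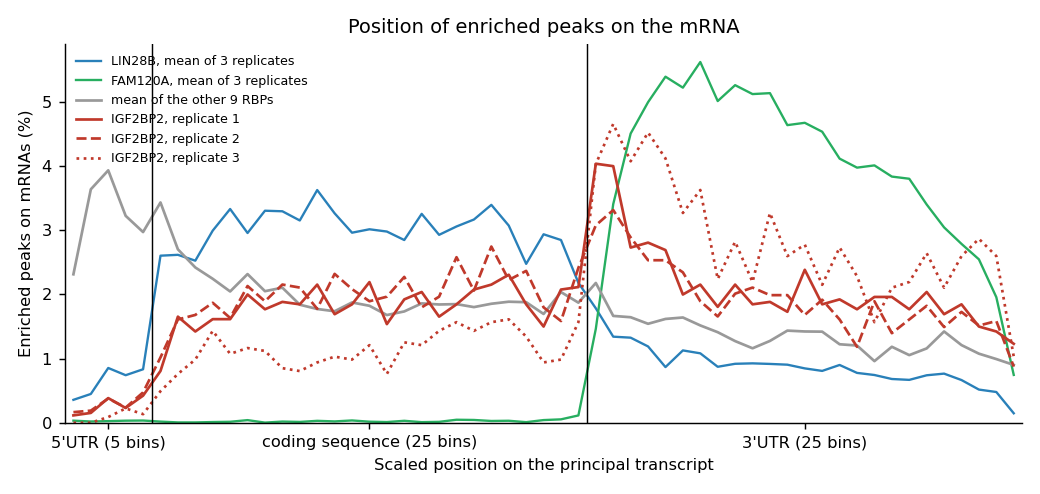
Share of the enriched peaks on mRNAs (percent) in each bin along the mRNA, with each region scaled to its length, for IGF2BP2 (1 red line per replicate), LIN28B and FAM120A (means of 3 replicates) and the mean of the other 9 RBPs. IGF2BP2 was low over the 5′UTR and highest in the first part of the 3′UTR, and replicate 3 had less CDS (27.6%) than replicates 1 and 2.

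By mean, CATA, CATC or CATT and CACA were denser around IGF2BP2 3′UTR peaks than around those of any other RBP of the pool. Within 50 nt on both sides of the centers of 1356, 2034 and 1578 enriched 3′UTR peaks, CATA, CATC or CATT occurred 15.9, 16.5 and 19.2 times per 1000 nt (17.2 ± 1.77, SD, n = 3). The other 9 RBPs had a mean of 10.1, and the next highest was PUM2 with 12.5 ± 0.636. CACA occurred 7.51, 7.30 and 8.75 times per 1000 nt (7.85 ± 0.787), against a mean of 4.83. Both differences, of 7.09 and 3.02 per 1000 nt, passed the exact permutation test within replicates (two-sided p = 0.001, the smallest it can give, and adjusted p = 0.0035 over 7 motifs). That test exchanged labels separately in each replicate, so the 3 libraries of an antibody counted as unlinked. With each RBP kept whole over the replicates, so small a p could not be reached. All 3 IGF2BP2 values for CATA, CATC or CATT lay above the 27 others. For CACA, 1 PUM2 value of 8.18 lay between them. Within the window CACA was densest at the peak center, with 12.5, 10.5 and 16.7 occurrences per 1000 nt in the bin just upstream of it and 3.69, 4.14 and 4.53 in the farthest bin downstream.

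The other 5 motifs did not pass the test. GGAC, the core in which N6-methyladenosine is placed, occurred 2.56 times per 1000 nt against 3.29 for the other 9 (adjusted p = 0.518, exact permutation), and TGGAC 1.06 times against 0.892 (adjusted p = 0.636). ACACAC, which contains CACA, occurred 1.43 times ± 0.608 (SD, n = 3) against 0.530 (adjusted p = 0.231), and PUM2 had a higher mean of 1.85. As a check of the search, GCATG, the element of RBFOX2, lay in 58.5% of RBFOX2 windows and 6.64% of IGF2BP2 windows. TGTANA, the element of PUM2, lay in 71.8% of PUM2 windows and 15.9% of IGF2BP2 windows.

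Base composition moved with these motifs: the IGF2BP2 windows held 17.4% G, the lowest of the 10 RBPs, against a mean of 23.8%, while C was 23.4% against 22.8%. The part of composition in the motif difference was not tested. In IGF2BP2 3′UTR peaks that were not enriched over the pool, the motif CATA, CATC or CATT occurred 13.5, 13.6 and 14.2 times per 1000 nt and CACA 6.64, 5.62 and 6.74 times, below the enriched peaks in every replicate. In such peaks of the other 9 RBPs, CATA, CATC or CATT had a mean of 10.3, still below IGF2BP2. CACA had a mean of 6.34 there, against 6.33 for IGF2BP2, but the replicates differed. In replicates 1, 2 and 3 the other 9 had 5.63, 4.995 and 8.38, under IGF2BP2 in replicates 1 and 2 and above it in replicate 3. The other 9 thus held less CACA in enriched peaks (5.07, 4.45 and 4.98, mean 4.83) than in the rest, most of all in replicate 3. That is part of the CACA difference above. At the 175 shared 3′UTR sites, 49.1% of the central 30 nt windows held CATA, CATC or CATT and 26.9% held CACA.

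**Figure D3:**
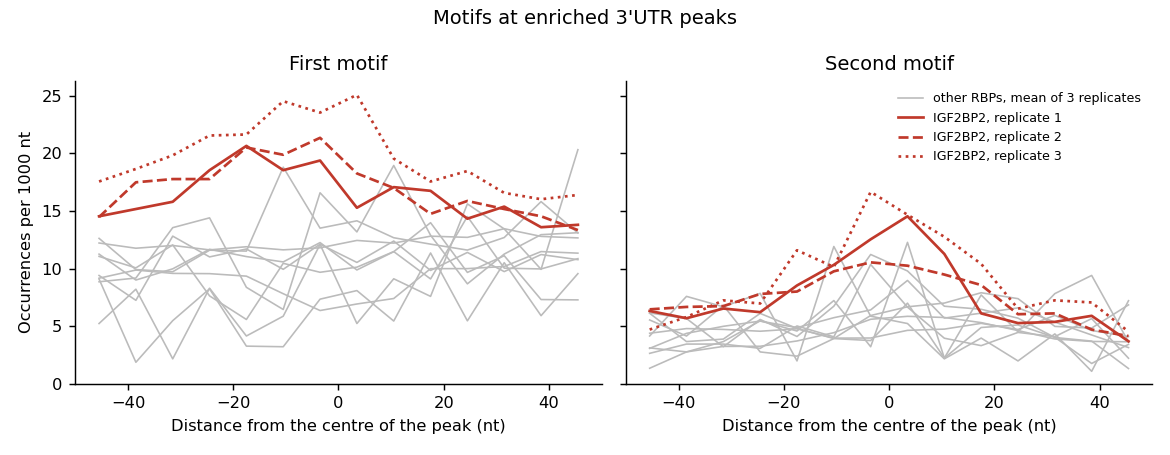
Occurrences per 1000 nt of the first motif (CATA, CATC or CATT) and the second (CACA) by distance from the center of enriched 3′UTR peaks (nt), with a red line for each IGF2BP2 replicate and a gray line for the mean of each other RBP. Over the whole window IGF2BP2 had the highest mean of the 10 RBPs for both, 17.2 and 7.85, while single bins of other RBPs, some with few peaks, reached its lines.

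To compare genes, IGF2BP2 reads were summed over the peaks of a gene and divided, as shares of their pools, by the CC reads at the same peaks. With limma on the log2 ratios of 2063 genes that had at least 10 IGF2BP2 reads in every replicate, 1518 (73.6%) were higher in IGF2BP2 and 66 (3.20%) were lower. Genes entered by their IGF2BP2 reads, and CC reads were counted only where IGF2BP2 had a peak, so a majority above 0 was built in and those counts are a description. The median log2 ratio of all genes tested was 1.43, and a gene is best read against that value. Against that median, a centering chosen after seeing the data, 469 (22.7%) were higher and 589 (28.6%) lower. The median SD of a gene's log2 ratio between replicates was 0.39. Of the 594 genes enriched in all 3 replicates, 432 had enough reads to be tested.

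HMGA1, an architectural chromatin protein that binds AT-rich DNA, had the most IGF2BP2 reads of the named genes and the highest ratio among the 12 named by ratio. HMGA1 peaks held 2523, 5513 and 6095 IGF2BP2 reads in replicates 1, 2 and 3 and 1258, 2572 and 1394 CC reads from all other 9 barcodes together. The log2 ratio was 4.43, 4.63 and 4.41 (mean 4.49, SE 0.213, limma adjusted p = 9.4e-05). As a level, HMGA1 took up 134, 187 and 123 of every 10000 IGF2BP2 reads in merged peaks, whereas in the 27 other libraries it took up from 2.59 to 25.0. The lowest IGF2BP2 library was above every other library of the pools.

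HMGA1 lies at chr6:34236873-34246231 on the plus strand (ENSG00000137309), and its 3′UTR of 1350 nt carried nearly all of its sites. All of its 16, 19 and 15 IGF2BP2 peaks were enriched, and 15, 18 and 15 of them lay in the 3′UTR. In replicates 1, 2 and 3 the peak centers ran from −10, −8 and 160 nt to 1133, 1125 and 1148 nt, counted from the end of the coding sequence. The strongest shared site, 1018 nt after the stop codon, is the one printed above. It held 251, 1014 and 1023 IGF2BP2 reads and 63, 194 and 105 CC reads, a log2 fold of 5.42, 5.92 and 5.57 (5.63 ± 0.255, SD, n = 3). Touching peaks share reads, so the peaks of HMGA1 are not independent of each other.

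**Figure D4:**
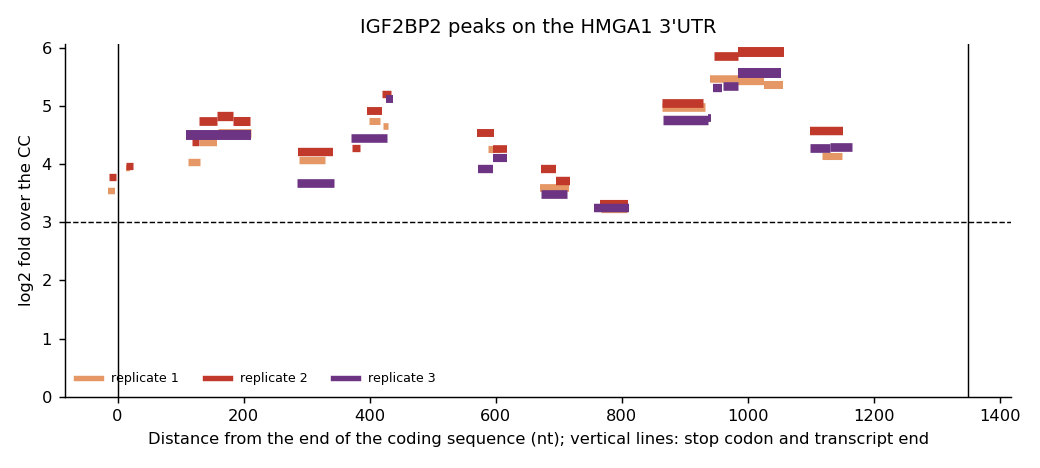
IGF2BP2 peaks on the 3′UTR of HMGA1 by distance from the end of the coding sequence (nt), as bars colored by replicate and thicker with more reads, with the log2 fold over the CC on the vertical axis and a dashed line at the limit of 8-fold. Enriched peaks ran from near the stop codon to 1148 nt after it, and the peak at 1018 nt had the highest mean log2 fold of the shared sites, 5.63.

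The other named genes with the highest ratios were bound at 3′UTRs or at CDS, and mostly at one of them. From here on, counts of a gene's enriched peaks are summed over the 3 replicates, so the same place can count more than once. S100A11, a calcium-binding S100 protein, had 1 peak per replicate, in the 3′UTR, with 61, 107 and 136 IGF2BP2 reads and 40, 51 and 34 CC reads (log2 ratio 4.30, SE 0.227, limma adjusted p = 9.4e-05). All 25 enriched peaks of FGFRL1, a fibroblast growth factor receptor without a kinase domain, lay in the 3′UTR (302, 430 and 573 IGF2BP2 reads, log2 ratio 3.999, SE 0.247). By contrast all 31 enriched peaks of NFATC3, a calcium-regulated transcription factor, lay in the CDS (167, 372 and 493 reads, log2 ratio 3.79, SE 0.225).

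SLC25A23, a mitochondrial carrier, had 13 enriched 3′UTR peaks and 5 in the CDS over the 3 replicates (100, 224 and 306 reads, log2 ratio 4.06). POLR2A, the largest subunit of RNA polymerase II, had 10 enriched peaks, all in the CDS (92, 138 and 166 reads, log2 ratio 3.75). The 7 enriched peaks of TAB2, an adaptor of the TAK1 kinase, were in the CDS too (40, 74 and 108 reads, log2 ratio 3.68). CREB3L1, a transcription factor held at the endoplasmic reticulum, and MLF2, a myeloid leukemia factor protein, had only 3′UTR peaks among their enriched ones (log2 ratios 3.88 and 3.87), as did the co-chaperone BAG2 and the lipid transport factor ARV1 (3.70 and 3.53). TMEM181, a membrane protein, had 10 of 11 enriched peaks in the CDS (3.59). All 12 genes passed the limma test. They were chosen by the same ratio that limma tests, so passing is a description. The adjusted p-values given above for genes of this set are to be read in the same way.

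Of these 12 genes, 9 had IGF2BP2 levels above all 27 other libraries, which was the case for 7.80% of all genes tested. The exceptions were CREB3L1, BAG2 and TMEM181, where 1 library of PUM2, EIF3G and RBFOX2 reached 4.39, 4.80 and 2.23 reads per 10000 in turn. The 12 were chosen by their ratio over the same pool, so this count is a description.

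The other genes named for most reads, among those with a shared site, were PABPC1, FTL, LDHA, FASN, PCBP2 and VIM, beside HMGA1 and FGFRL1 above. The abundance of their mRNAs was not measured. PABPC1, the cytoplasmic poly(A)-binding protein, took up 116, 113 and 78.9 of every 10000 IGF2BP2 reads and at most 42.8 in any other library (log2 ratio 3.45, SE 0.215, limma adjusted p = 9.4e-05). It had 15, 19 and 18 enriched peaks in replicates 1, 2 and 3. Of these 52 together, 44 lay in the CDS, unlike those of HMGA1. FTL, the ferritin light chain, took up 34.9, 37.1 and 49.95 of every 10000 reads, above the highest other library at 27.02 (log2 ratio 2.69, SE 0.219).

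LDHA, the lactate dehydrogenase subunit, took up 21.9, 28.7 and 36.98 of every 10000 reads, against at most 15.6 elsewhere (log2 ratio 3.08), and 14 of its 15 enriched peaks lay in the 3′UTR. For FASN, the fatty acid synthase, IGF2BP2 took up 17.7, 16.6 and 20.5 of every 10000 reads, and LIN28B reached more (32.3 ± 4.83, SD, n = 3). The log2 ratio of FASN was 1.09, under the median of all genes. For PCBP2, a poly(C)-binding protein, EIF3G had the higher mean, 29.8 against 17.6. For VIM, the intermediate filament vimentin, the means of EIF3G and IGF2BP2 were within their spread, at 14.1 ± 1.74 and 14.1 ± 1.35 (SD, n = 3).

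**Figure D5:**
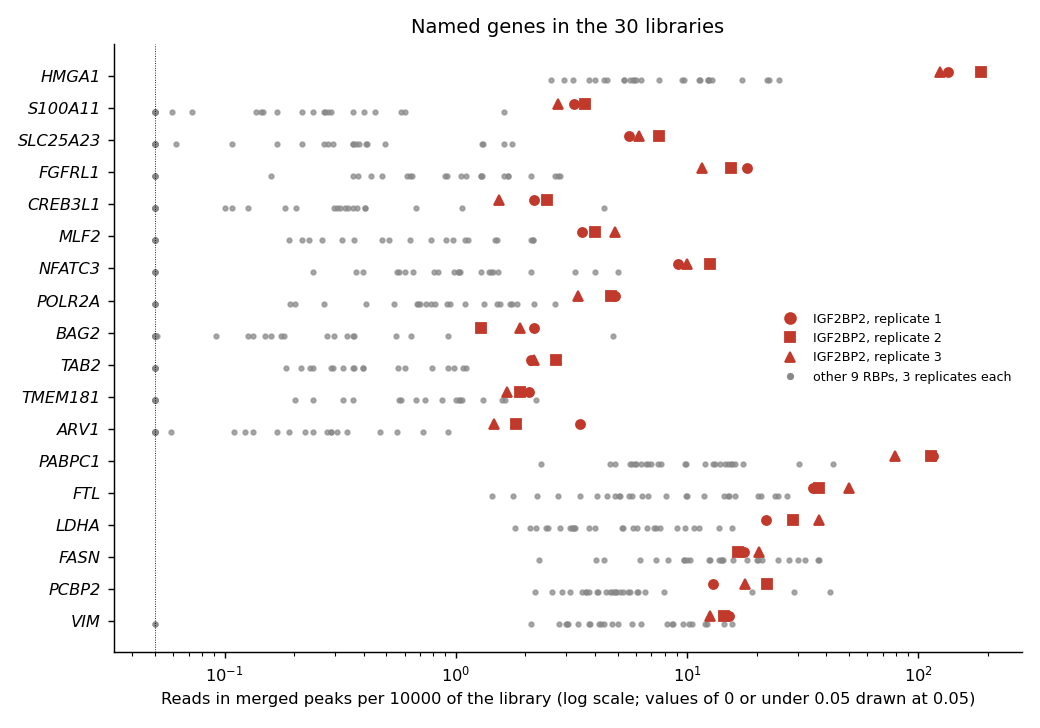
Level of the genes named by ratio and by reads in the 30 K562 libraries, as reads in merged peaks per 10000 of the library on a logarithmic axis, with the 3 IGF2BP2 libraries set apart from the 27 others. For HMGA1 the IGF2BP2 libraries sit between 123 and 187 and the others between 2.59 and 25.0.

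The genes with the lowest ratios were each dominated by one other RBP of the pool. They were chosen by the ratio that limma tests, so the adjusted p given here is a description. DDX6, a helicase of mRNA decay, took up 6.35, 10.9 and 5.48 of every 10000 IGF2BP2 reads and 487 ± 90.0 (SD, n = 3) of every 10000 FAM120A reads (log2 ratio −3.61, limma adjusted p = 9.4e-05). MMP25-AS1, an antisense RNA, had a log2 ratio of −2.83 and 49.7 ± 5.34 of every 10000 RBFOX2 reads. LIN28B had the most reads for ETFA, an electron transfer flavoprotein subunit, and for H19, the imprinted noncoding RNA, at 72.9 ± 21.6 and 236 ± 51.1 per 10000, with IGF2BP2 log2 ratios of −2.15 and −2.14. Over the external background, where all 2063 genes were above 0 with a median log2 ratio of 4.24, these 4 had 5.27, 4.01, 3.81 and 4.66.

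Of 20 mRNAs reported elsewhere as targets of the IGF2BP family, 14 had an IGF2BP2 peak in some replicate and 10 could be tested. Against the median gene, 2 of these 10 were higher and 4 lower, beside 22.7% and 28.6% of all genes. Against the CC itself, 7 were higher, 1 was lower and 2 did not pass, near the 73.6% and 3.20% of all genes (median log2 ratio 1.23, against 1.43). Of 11 with a peak in all 3 replicates, PABPC1 alone had an enriched one in each, against 14.7% of all genes. LIN28B mRNA and CTNNB1 had log2 ratios of 2.11 and 1.97. MYC held 27, 63 and 204 IGF2BP2 reads and 109, 261 and 379 CC reads, a log2 ratio of 1.43 (SE 0.21, limma adjusted p = 0.000745), the same as the median gene. CCND3 (1.04) and NRAS (0.64) passed at values below that median. ACTB and CCNG1 did not pass, at −0.02 and 0.58 (limma adjusted p = 0.939 and 0.0529), and H19 was the one that was lower. BTRC, CCND1 and SRF were among those with too few reads.

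Lists of related genes are given next by limma calls against the median gene, where 22.7% of all genes tested were higher and 28.6% lower, and then against the CC itself, where 73.6% were higher. In the lists with 0 genes lower than the CC, 0 were lower at an unadjusted p below 0.05 too. Of all genes with a peak in all 3 replicates, 594 (14.7%) had an enriched one in each. Only 231 of these held a shared site, so the enriched peaks of a gene can lie at different sites in different replicates. Of 23 chromatin and transcription regulators tested, 11 were higher and 4 lower than the median gene, and 19 (82.6%) were higher and 0 lower than the CC (median log2 ratio 1.99). Of 27 members with a peak in all 3 replicates, 13 had an enriched one in each, against 14.7% of all genes: the histone methyltransferases KMT2A and KMT2D, the demethylases KDM5B and KDM6B, the acetyltransferases CREBBP and EP300, the remodeling subunits ARID1A and SMARCC1, the Polycomb protein SUZ12, the DNA dioxygenases TET1, TET2 and TET3, and HMGA1. A shared site was held by 4 of these 13. TET2 had a log2 ratio of 4.49 ± 1.08 (SD, n = 3), from only 12, 19 and 37 IGF2BP2 reads and 5, 5 and 18 CC reads. Its 7 enriched peaks over the 3 replicates lay in the CDS, without a shared site. TET1 had a log2 ratio of 2.29, with 12 enriched peaks in the CDS by the same count.

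Of 52 cytoplasmic ribosomal proteins tested, 34 were lower than the median gene and 1 was higher. Against the CC, 21 (40.4%) were higher, 1 was lower and 30 did not pass, with a median log2 ratio of 0.50. Of 63 members with a peak in all 3 replicates, 0 had an enriched one in each, against 14.7% of all genes. RPL15 (1.80), RPS27 (1.77) and RPL31 (3.12) had the lowest adjusted p of the list. The ratio of RPL31 (SD 1.13, n = 3) rested on 12, 21 and 40 IGF2BP2 reads and 6, 43 and 36 CC reads. Of 22 translation initiation and elongation factors, 3 were higher and 11 lower than the median gene, and 14 were higher and 1 lower than the CC (median 0.82). Of 25 members with a peak in all 3 replicates, PABPC1 alone had an enriched one in each, at a shared site. EIF4E (2.55) and EIF3E (2.21) had the next lowest adjusted p of the list.

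In glycolysis 3 of 14 tested genes were higher and 4 lower than the median gene, and 11 were higher and 0 lower than the CC (median 1.40). Of 19 members with a peak in all 3 replicates, LDHA, PGK1 and PKM had an enriched one in each, and all 3 genes held a shared site. Over the 3 replicates together, all 9 enriched peaks of PGK1, phosphoglycerate kinase, lay in the 3′UTR (log2 ratio 2.79). Of the nuclear-encoded respiratory chain, 1 of 12 was higher and 4 lower than the median gene, and 9 were higher and 0 lower than the CC (median 1.73). Of 24 members with a peak in all 3 replicates, ATP5F1A, NDUFS1 and UQCRC2 had an enriched one in each, and 2 of them held a shared site. Of 13 cyclins, kinases and mitotic regulators, 2 were higher and 1 lower than the median gene, and 12 were higher and 0 lower than the CC (median 1.78). Of 20 members with a peak in all 3 replicates, BUB1, CCND2, CDK6 and PLK1 had an enriched one in each, but 0 of them held a shared site. CCNA2, the S-phase cyclin, and CDK1, the mitotic kinase, had log2 ratios of 2.19 and 2.05 without an enriched peak in every replicate.

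Of 20 cytoskeleton and adhesion genes, 3 were higher and 4 lower than the median gene, and 17 were higher and 1 lower than the CC (median 1.56). Of 22 members with a peak in all 3 replicates, STMN1, TUBA1B and VIM had an enriched one in each, and all 3 genes held a shared site. The actin regulators CFL1 and PFN1 had log2 ratios of 2.71 and 2.78. Of 22 transporters and secretory genes, 3 were higher and 10 lower than the median gene, and 15 were higher and 0 lower than the CC (median 0.98). Of 23 members with a peak in all 3 replicates, 6 had an enriched one in each, and 3 of these held a shared site. The 6 were the COPII coat protein SEC24A, the translocon subunit SEC61A1, the amino acid transporters SLC38A1 and SLC7A1, SSR1 and the cargo receptor TMED2. Summed over the 3 replicates, the 13 enriched peaks of SEC24A lay in the CDS and the 13 of TMED2 in the 3′UTR.

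For IGF signaling and the IGF2BP family itself, 5 of 20 members had enough reads. Of these, 0 were higher and 1 lower than the median gene, and 4 were higher and 1 lower than the CC (median 0.99). Of the 10 with a peak in all 3 replicates, 0 had an enriched one in each. The kinase AKT2 had a log2 ratio of 1.598, the mTORC2 subunit RICTOR 1.54 and IGF2BP2 mRNA 0.99. Of 15 writers, erasers and readers of N6-methyladenosine, 3 could be tested, the ubiquitin ligase CBLL1 (2.43), the writer subunit RBM15 (0.96) and the demethylase ALKBH5 (0.93). All 3 were higher than the CC, and 1 was higher and 0 lower than the median gene. Among the K562 markers, TFRC, the transferrin receptor, had a log2 ratio of −0.02.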

How the data were processed

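The authors trimmed reads with cutadapt 2.8, aligned them to GRCh38 with STAR 2.7.6, collapsed duplicates and ran CLIPper on each library. Their CLIPper peaks were deposited with a p-value and a display score. Their merged peaks carry, per the file headers and methods, a deposited log2 fold over an external background and its −log10 P, capped at 400. The paper states that multiplexed data were normalized to total RNA-seq as well as to the other RBPs of the pool. The sources used here do not name the external background library by library. Over the CC, the deposited values of replicates 1 and 2 are a score (chi-squared) and a p-value, and those of replicate 3 a log2 fold and a −log10 P. The deposited lists of replicates 1 and 2 leave out places in repeats.

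Whole reads per peak were recovered from the deposited log2 fold and P, and CC reads of replicates 1 and 2 from the chi-squared statistic. IGF2BP2 reads came out whole in 100% of peaks, and whole CC reads were found for 92.8% in replicates 1 and 2, with the nearest whole number for the rest. On data simulated from the 41131 peaks of replicate 3, the direction was right for 99.9% of those with P below 0.001. CC reads were equal for 93.4% of all peaks, and 100% of enriched calls were recovered, with 0.0343% false. This simulation was given the library's share and the pool total, which were fitted for replicates 1 and 2. Error from that fit is therefore not part of these values. Regions came from GENCODE release 44 and matched the authors' labels for 98.5% of 29291 IGF2BP2 peaks. A peak that touched several regions took CDS first, then 3′UTR and 5′UTR, ahead of splice sites and introns. A 3′UTR includes the stop codon. Reads in touching peaks are counted in each, and levels are shares of the reads in all merged peaks of a library, with or without a CC value.

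Shares were compared by exact permutation of RBP labels within replicates (1000 choices, two-sided, smallest p 0.001), since the 10 libraries of a replicate come from the same pool, and p-values were adjusted by Benjamini-Hochberg within each family. Labels were exchanged separately in each replicate, which treats the 3 libraries of an antibody as unlinked. Gene ratios were tested with limma 3.58.1 in R 4.3.3, CC reads taken as at least 1, threshold 0.05 after Benjamini-Hochberg over all genes. On simulated ratios of 2063 genes, limma recovered 33.3% of changes of size 1 on the log2 scale, 94.0% of size 2 and 100% of size 3, with 4 false calls.

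Named genes were, among those with a shared site, the 12 with the highest mean ratio and at least 30 reads in every replicate and the 8 with most reads, then the 4 lowest ratios, all reported targets with a peak, and up to 3 of each other list by lowest adjusted p; TFRC was added after its values were seen, and some genes that the rule names are not reported here. The members, gene lists and motifs were chosen with earlier results of these data known. Precision is limited by depth: most peaks hold under 10 reads. The alternatives tried were other limits and backgrounds, adapter-like sites kept, other overlaps, regions, windows, transcripts, pseudocounts and filters, a variance trend, no replicate block, and each replicate left out. Authors' annotation labels were used for the region check only.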

Additional observations from a re-analysis of the deposited data

How the results depend on the processing

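The number of calls depended on the limits, whereas no call on regions or positions changed. The CDS difference of 2.46 percentage points, which did not pass, was 13.1 by the region at the peak center, −8.82 over the external background and −0.53 without replicate 2. By the region at the peak center the splice site difference went from −8.85 to −18.3 percentage points and did not pass either. The mean of 3317 enriched peaks per library was 860.7 with P below 1e-05 and a fold above 16, 5249 with a fold above 4, 8414 over the external background and 2171 with 1 exact binomial test (chosen after seeing the data). In the same order of the first 3 settings, the 297 shared sites became 57, 818 and 2694, and the 594 genes 77, 1113 and 1750; a shared site was held by 231 genes. Without 1 replicate, 499 to 698 sites and 767 to 1054 genes were shared by the other two. CATA, CATC or CATT and CACA passed under every alternative run, with differences of 6.18 to 8.85 and 2.64 to 4.78 per 1000 nt. Each of these alternatives also counted the libraries of an antibody as unlinked. TGGAC passed with P below 1e-05 and a fold above 16 (0.729, adjusted p = 0.014, exact permutation), and ACACAC without replicate 3 (0.71, adjusted p = 0.0233), where leaving out 1 replicate gave 0.71 to 1.03. The 3′UTR difference ran from 22.9 to 34.0 percentage points and passed nowhere.

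Genes higher than the CC by limma, 1518, numbered 2967 with at least 3 reads, 567 with at least 30, 515 by the peak with most reads and 469 after centering on the median of all genes. Genes lower, 66, numbered 39 by the peak with most reads, 589 after centering and 0 over the external background, where all 2063 had p below 0.05 and were higher (median 4.24). Without 1 replicate they ran from 29 (without replicate 2) to 56. Without the replicate block, that is without pairing IGF2BP2 with the CC of its own pool, 921 were higher and 13 lower, and the block changed no call for the motifs or regions. Centering was chosen after seeing the data; on the median of each replicate in place of one median, 27.2% of genes were higher and 29.9% lower. Subtracting one median of 1.43 puts every gene between 0 and that value below 0, among them FASN (−0.33), MYC (−0.0011), NRAS (−0.78), CCND3 (−0.39), CCNG1 (−0.84), IGF2BP2 (−0.44), ALKBH5 (−0.49) and RBM15 (−0.47). Over the external background, where no gene was below 0, the values were above 0 for DDX6 (5.27), MMP25-AS1 (4.01), ETFA (3.81), H19 (4.66) and ACTB (6.30) too. Both sign changes follow from moving the whole table. The cause of the other changes was not tested, other than that the filters test different numbers of genes. Leaving soft-masked repeats out of replicate 3 was not run, as the reference used holds no soft-masking. Low reads limit most peaks: the median enriched peak held 4, 5 and 10 reads.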
